A study of Mus musculus with 2 samples.

Results

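Il4-positive T cells were taken from the spleens of 2 kinds of mouse, LatY136F CD45-KO and LatY136F, whose T cells were sequenced cell by cell. The cells were chosen by their measured counts. They are the cells with at least 1 Il4 molecule, at least 1 molecule of the T cell receptor genes Trac, Cd3e and Cd3g together, no molecule of the basophil gene Mcpt8, at least 200 genes and at most 25% of molecules from mitochondrial genes. There were 1461 such cells among 26251 T cells, 634 of 12635 in the CD45-KO library and 827 of 13616 in the LatY136F library, out of 26620 cells in all. Molecules are counted by unique molecular identifier (UMI), so each UMI stands for 1 captured mRNA. The Il4 count chose the cells, and every Il4 value below is therefore a description.

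Both groups carry LatY136F, a point mutation of the adaptor LAT that removes the tyrosine that phospholipase C gamma binds, and the first group also lacks CD45, a membrane phosphatase that activates SRC family kinases and is the product of Ptprc. LAT mutants of this kind develop a lymphoproliferation of CD4 T cells that produce type 2 cytokines. The animals were 8 to 9 weeks old, the cells were sorted as CD3 and CD5 positive, and each genotype has 1 library made with the BD Rhapsody whole transcriptome assay. The sources used here do not give the number of mice behind each library, and no wild-type or CD45-KO-only library was analysed here. With 1 library per genotype no test was possible, so every difference is given with a 95% interval that covers counting error only and says nothing of the spread between mice or captures. Intervals of summed counts also leave out the spread of UMIs between cells.

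Interleukin-4 is the cytokine that drives B cells to switch to IgE and IgG1 and that T helper 2 (Th2) cells use to reinforce their own fate. Its gene is opened by GATA3, the master regulator of Th2 cells, and transcribed in bursts after receptor engagement, when calcium carries NFAT into the nucleus. Another source of the cytokine in lymphoid tissue is the T follicular helper (Tfh) cell, which sits in B cell follicles, carries CXCR5, PD-1 and BCL6, and makes interleukin-21 with little GATA3. Markers of both kinds of cell are therefore followed below.

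Il4 lies on chromosome 11 from 53602982 to 53618669 on the minus strand (GRCm38, GENCODE), Il13 lies upstream of it at 53631324 to 53634702, and Il21 lies on chromosome 3 at 37222759 to 37232636. The 250 bases before the start of these 3 cytokine genes (RefSeq, GRCm38.p6) are shown because Il4 chose the cells, Il13 is its neighbour of the type 2 group and Il21 the Tfh cytokine found with it. Capitals mark the NFAT core GGAAA on either strand, so that TTTCC is its reverse complement. The Il4 window is chr11:53618666-53618915, the Il13 window chr11:53634703-53634952 and the Il21 window chr3:37232637-37232886, all on the minus strand.

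Il4: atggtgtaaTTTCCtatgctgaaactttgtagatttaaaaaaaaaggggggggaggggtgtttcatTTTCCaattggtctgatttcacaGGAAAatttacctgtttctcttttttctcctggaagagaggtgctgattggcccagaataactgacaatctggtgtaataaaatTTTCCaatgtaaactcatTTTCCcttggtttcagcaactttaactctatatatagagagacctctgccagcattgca
Il13: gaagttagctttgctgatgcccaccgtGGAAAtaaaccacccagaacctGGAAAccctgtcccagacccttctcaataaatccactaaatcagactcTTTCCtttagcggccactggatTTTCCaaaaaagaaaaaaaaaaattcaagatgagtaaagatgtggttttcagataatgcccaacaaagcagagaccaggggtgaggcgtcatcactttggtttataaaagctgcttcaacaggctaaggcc
Il21: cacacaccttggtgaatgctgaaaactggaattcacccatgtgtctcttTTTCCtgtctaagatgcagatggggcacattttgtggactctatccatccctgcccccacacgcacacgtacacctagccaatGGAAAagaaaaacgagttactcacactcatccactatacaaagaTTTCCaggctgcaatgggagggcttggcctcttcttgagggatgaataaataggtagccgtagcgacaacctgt

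The core occurred 1 time forward and 4 times reversed before Il4, 2 and 2 times before Il13, and 1 and 2 times before Il21. It is a common word: 55.6% of 32851 upstream stretches of the same length in the same table held it on either strand, with a median of 1. The GATA core, searched as GATA on either strand, was in 53.6% of the stretches, with none before Il4, 1 before Il13 and 1 before Il21. Another annotated Il4 start has its window at chr11:53617339-53617588, which held no NFAT core and 3 GATA cores. These are matches of letters and not sites of binding.

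The CD45-KO table held 29268453 UMIs and that of LatY136F held 35300371, and all T cells had a median of 1998 UMIs in the CD45-KO library and 2162 in the LatY136F library. Il4-positive cells were deeper, with medians of 2348 and 2793.5 UMIs (2793.5 over the 826 LatY136F cells that could be matched). Each was therefore set against 3 Il4-negative T cells of its own library with nearly the same number of UMIs. That gave 634 against 1900 CD45-KO cells (median 2348 against 2344 UMIs) and 826 against 2477 LatY136F cells (2793.5 against 2792), with 1 LatY136F cell left unmatched. Cell index numbers were shared between the libraries by 223 cells, 15 of them Il4-positive in the CD45-KO library and 16 in the LatY136F library.

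The loss of CD45 could not be checked from these counts. Ptprc stood at 1310 CPM (the gene's UMIs over all UMIs of the summed cells, scaled to the same total in each set) in CD45-KO Il4-positive cells and 1709 in LatY136F ones, a log2 ratio of -0.38 (-0.45 to -0.31), and at 1094 against 1595 CPM in the matched negatives. The counts cover the whole gene (chromosome 1, 138062861 to 138175708), and the sources used here do not give which part of it was deleted, so the level says nothing about the label. The T cell receptor genes were part of the rule and do not check the sort either. Cd4 was at 779 CPM in CD45-KO and 645 in LatY136F Il4-positive cells, and Cd8a had 1 UMI and 0 UMIs there.

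Il4 was rare. Of CD45-KO T cells 5.02% (exact 95% interval 4.64 to 5.41) had an Il4 UMI, against 6.07% (5.68 to 6.49) of LatY136F T cells. The share followed depth in both libraries. Among CD45-KO cells it was 1.83% under 1000 UMIs, 3.36% from 1000 to 2000, 5.92% from 2000 to 4000, 11.8% from 4000 to 8000 and 18.8% above that. Among LatY136F cells it was 3.02%, 3.18%, 6.70%, 13.2% and 22.5% in the same classes. Thinning each cell to 1000 UMIs, which left out 328 and 398 shallower cells, gave 2.47% (2.20 to 2.76) in CD45-KO cells and 2.64% (2.37 to 2.93) in LatY136F cells, intervals that overlap. At 2000 UMIs, with 6332 and 5716 cells left out, the shares were 5.11% and 5.37%, so the gap of the unthinned shares was not seen at equal depth.

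**Figure D1:**
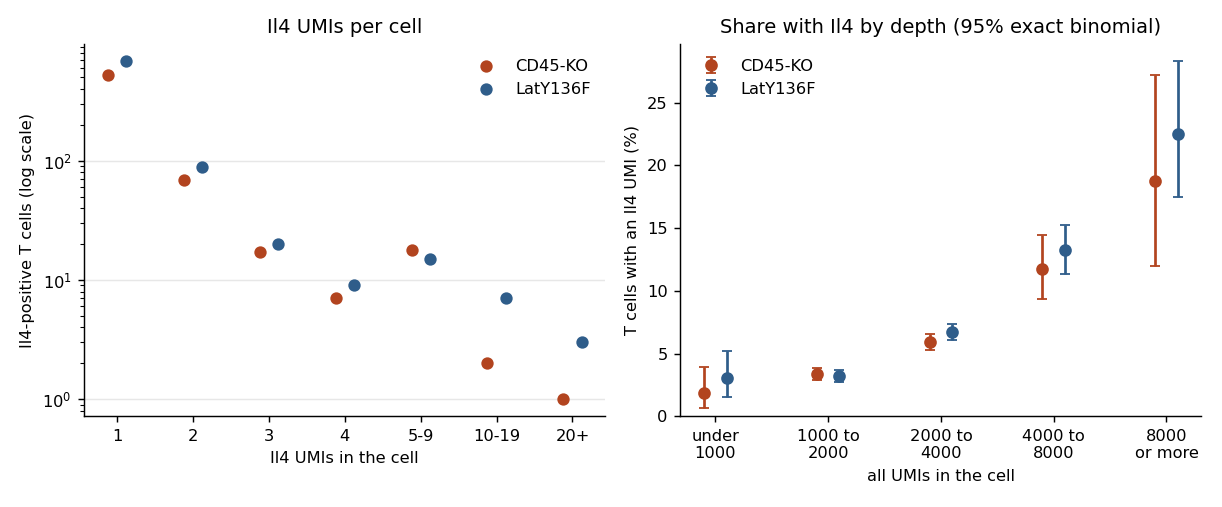
Il4 in T cells of the CD45-KO library and the LatY136F library. Left, the number of Il4-positive T cells (log scale) by Il4 UMIs in the cell, with 520 CD45-KO and 684 LatY136F cells at 1 UMI and 1 and 3 cells at 20 or more; right, the percent of T cells with an Il4 UMI by the total UMIs of the cell, with exact binomial 95% intervals, climbing to 18.8% and 22.5% in the deepest class.

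Cells without a Trac, Cd3e or Cd3g UMI were taken as a background. They came from the same sort and were shallow, and how many are T cells in which these genes were missed was not tested. B-lineage cells without these genes numbered only 5 in CD45-KO and 1 in LatY136F, 0 of them with Il4. The share of the background cells with an Il4 UMI is therefore not a measure of free RNA alone. Of CD45-KO cells with no Trac, Cd3e or Cd3g UMI, 4 of 188 (2.13%, 0.583 to 5.36, median 1425 UMIs) had one, against 0 of 107 LatY136F cells (which allows up to 2.80% by the limit of 3 counts, or 3.39% as the upper end of the exact interval, median 1161 UMIs). Shares inside the exact background interval of their own library are not read as expression. Among the depth classes these were the 1.83% and 3.36% of the 2 shallowest CD45-KO classes and the 3.02% and 3.18% of the 2 shallowest LatY136F classes. The shares over all CD45-KO T cells, 5.02% unthinned and 5.11% at 2000 UMIs, also lie inside the CD45-KO interval. So does every share of T cells with Il4 given below that is under 5.36% in CD45-KO or under 3.39% in LatY136F. The intervals are wide because the background cells are few, and the LatY136F upper end of 3.39% rests on 0 of 107 cells. The shares thinned to 1000 UMIs, 2.47% in CD45-KO and 2.64% in LatY136F, are the nearest in depth to the background cells. They lie inside the background intervals, so over all T cells Il4 was not separated from this background at like depth. T cells with UMIs of 2 or more of the 6 Tfh genes counted below had Il4 in 38.6% in CD45-KO and 38.9% in LatY136F, or 17.0% (13.0 to 21.6) and 15.5% (11.5 to 20.3) when thinned to 1000 UMIs, above both background intervals. How many of the cells with 1 Il4 UMI carry free RNA was not tested.

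Most positive cells carried a solitary transcript. In the CD45-KO library 520 of 634 cells (82.0%) had 1 Il4 UMI, 93 (14.7%) had 2 to 4 and 21 (3.31%) had 5 or more. In the LatY136F library 684 of 827 (82.7%) had 1, 118 (14.3%) had 2 to 4 and 25 (3.02%) had 5 or more. Just outside the rule, with 0 UMIs, were all other T cells, and just inside it were those with 1, so membership of 82.0% and 82.7% of the cells rests on 1 molecule.

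A few cells held a large part of the Il4 mRNA. The 21 CD45-KO cells with 5 or more UMIs held 18.7% of 907 Il4 UMIs and the 25 LatY136F cells 25.7% of 1289. The highest CD45-KO cell had 35 and the next 12, against 86 and 24 in LatY136F. Mean Il4 UMIs per positive cell were 1.43 (SD 1.76 over cells) in CD45-KO and 1.56 (SD 3.48) in LatY136F, and without the highest cell of each library 1.38 and 1.46. The variance of Il4 counts over all T cells was 3.53 times their mean in CD45-KO and 9.21 times in LatY136F, or 2.28 and 3.74 times without the highest cell, where counts that differ by sampling alone would give a ratio near 1. Summed over the positive cells Il4 stood at 483 CPM (452 to 516) in CD45-KO and 427 CPM (404 to 450) in LatY136F.

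Gata3, listed beside Il4 as a marker for these cells, did not mark them. It was detected in 80.6% (77.3 to 83.6) of CD45-KO Il4-positive cells, against 84.5% (82.8 to 86.1) of their matched negatives, and in 87.0% (84.6 to 89.3) against 89.9% (88.7 to 91.1) in LatY136F. Its level was 801 against 872 CPM in CD45-KO, a log2 ratio of -0.12 (-0.21 to -0.04), and 860 against 911 CPM in LatY136F, -0.08 (-0.15 to -0.02). Gata3 is thus carried by most T cells of these spleens with or without Il4. The other Th2 regulators and receptors were as flat. Of 25 measured in both libraries, Bhlhe40 alone was higher by at least 1.5-fold in both and none was lower, with a median log2 ratio of 0.01, equal to the 0.01 of all genes. Of all genes 1.93% were higher in both and 0.437% lower. Maf, the factor that binds the Il4 promoter, had log2 ratios of 0.22 in CD45-KO and 0.08 in LatY136F. Il1rl1, the receptor for interleukin-33, had -0.34 and -0.25, and Il4ra, the receptor for interleukin-4 itself, -0.49 and -0.39.

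What set the Il4-positive cells apart was a follicular helper programme in a minority of them. A gene is counted as higher or lower where its CPM differs by at least 1.5-fold and its counting interval leaves out 0, among genes with 20 or more UMIs. By that rule 497 genes (4.85% of 10248) were higher and 345 (3.37%) lower in CD45-KO Il4-positive cells than in their matched negatives, against 403 (3.8% of 10608) and 221 (2.08%) in LatY136F. In both libraries 194 genes (1.93% of 10071) were higher and 44 (0.437%) lower. Of 20 Tfh genes measured in both, 14 were higher in both and 0 lower, with a median log2 ratio of 1.69 against 0.01 over all genes. Sostdc1, a secreted antagonist of BMP and Wnt signals made by a subset of Tfh cells, was at 370 against 45.0 CPM in CD45-KO (3.04, 2.83 to 3.25) and 150 against 19.7 CPM in LatY136F (2.93, 2.68 to 3.19). Cxcr5, the follicle-homing receptor, had log2 ratios of 3.06 and 2.74, Pdcd1, which encodes PD-1, 2.60 and 1.904, and Bcl6, the factor that defines the lineage, 1.91 and 1.46. Icos, the costimulatory receptor of Tfh cells, was higher in CD45-KO alone (0.83) and had 0.19 in LatY136F.

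**Figure D2:**
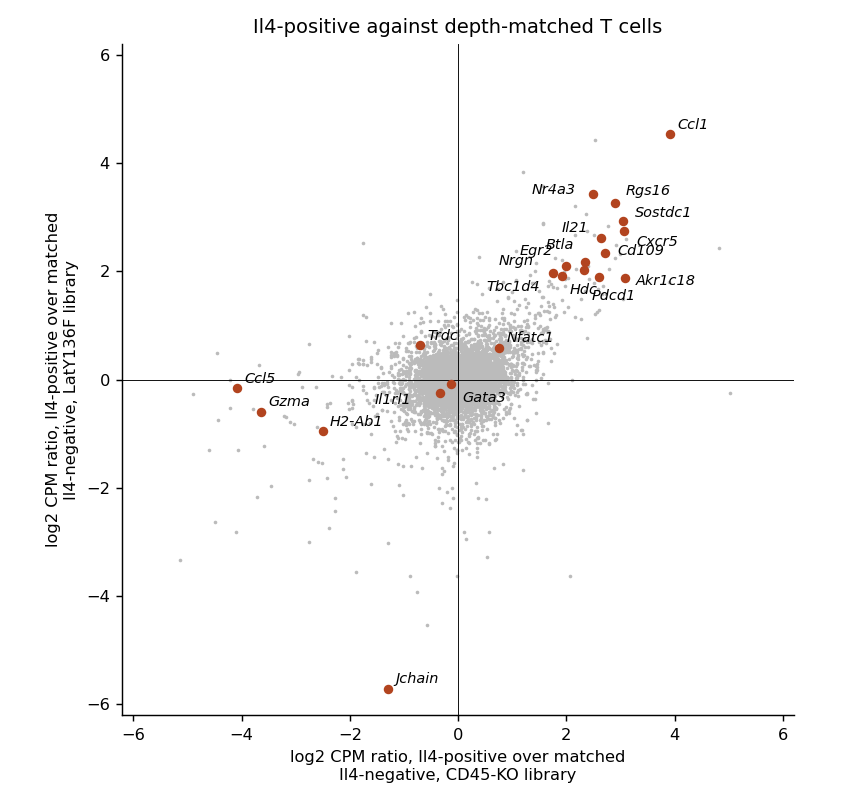
Log2 CPM ratio of Il4-positive over depth-matched Il4-negative T cells in the CD45-KO library (x axis) and the LatY136F library (y axis), 1 point per gene for 10071 genes with 20 or more UMIs in both, Il4 left out and selected genes labelled. Ccl1, Sostdc1, Cxcr5, Il21 and Rgs16 lie far to the upper right, while Gata3 lies at -0.12 and -0.08.

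Counting cells gave the size of that minority. Cells with UMIs of at least 2 of Cxcr5, Bcl6, Il21, Pdcd1, Tox2 and Sostdc1 are called Tfh-marked here. They were 124 of 634 (19.6%, 16.5 to 22.9) CD45-KO Il4-positive cells against 2.95% (2.23 to 3.81) of matched negatives, and 110 of 826 (13.3%, 11.1 to 15.8) LatY136F ones against 2.79% (2.17 to 3.51). Cells with none of the 6 were still the majority of the Il4-positive ones, 463 of 634 (73.0%) and 620 of 826 (75.1%). Read the other way, 124 of 321 Tfh-marked T cells (38.6%) had Il4 in CD45-KO and 111 of 285 (38.9%) in LatY136F, against 3.95% and 5.05% of cells with none of the 6. Thinned to 1000 UMIs, the shares were 17.0% and 15.5% of Tfh-marked cells, against 2.03% and 2.25% of those with none. The 3.95%, 2.03% and 2.25% lie inside the background intervals of their own libraries. Tfh-marked cells held 30.8% of all Il4 UMIs of positive cells in CD45-KO and 24.0% in LatY136F.

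Taking the Tfh-marked cells out of both sides left fewer genes in common between the libraries. With 509 against 1527 CD45-KO cells, 216 genes (2.22% of 9709) were higher and 253 (2.61%) lower, and with 716 against 2145 LatY136F cells 183 (1.79% of 10236) were higher and 180 (1.76%) lower. In both libraries 30 genes (0.313% of 9592) were higher and 28 (0.292%) lower. Of the Tfh genes still measured, 7 of 15 were higher and 1 lower in CD45-KO (median 0.45) and 7 of 18 higher and 0 lower in LatY136F (median 0.55), although the filter takes out cells by 6 of these genes. The Gata3 log2 ratio then stood at 0.09 in CD45-KO and 0.02 in LatY136F. Genes that stayed higher in both included Ccl1 at 4.26 and 4.12, Rgs16 at 3.35 and 3.11, Egr2 at 1.80 and 1.02, Tnfrsf9 at 2.03 and 1.20, Nr4a3 at 1.64 and 3.11, and Tnfsf8 at 0.90 and 0.78. Bhlhe40 went to -0.16 and -0.08. Markers of antibody-secreting cells moved with the Tfh-marked cells of the CD45-KO library: Jchain, the joining chain of secreted IgM and IgA, had a log2 ratio of -1.29 with them and -6.56 without them, and their part in the result was not tested.

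Il4-positive Tfh-marked cells differed from other positive cells in Gata3. Gata3 was at 335 CPM in the Tfh-marked Il4-positive cells of CD45-KO and 452 in those of LatY136F, against 365 and 474 CPM in Tfh-marked cells among the matched negatives. In Il4-positive cells with none of the 6 Tfh genes it was at 1052 and 1015 CPM, against 927 and 979 in the Il4-negative cells with none. Gata3 thus differed more with the Tfh mark than with Il4. Within Tfh-marked cells, Sostdc1 stood at 1302 CPM with Il4 against 791 without it in CD45-KO, and at 684 against 374 in LatY136F. Nfatc1, an NFAT factor that receptor signals induce, stood at 1252 against 868 CPM and at 896 against 551.

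Levels followed the number of Il4 UMIs per cell. From matched negatives through 1, 2 to 4, and 5 or more Il4 UMIs, Gata3 went 872, 872, 658 and 401 CPM in CD45-KO and 911, 910, 708 and 565 in LatY136F. The Tfh-marked share went the other way, 2.95%, 13.1%, 43.0% and 76.2% in CD45-KO and 2.79%, 8.04%, 32.2% and 72.0% in LatY136F. Cells with 5 or more Il4 UMIs were thus mostly Tfh-marked, and low in Gata3 when summed, in both libraries. That did not hold for each cell. In LatY136F the cells with 86, 23, 19 and 17 Il4 UMIs had no Tfh mark, and that with 24 had it. In CD45-KO the cell with 35 had no Tfh mark, and those with 12, 10 and 9 had it. Il1rl1 went 564, 512, 312 and 58.3 CPM in CD45-KO and 394, 376, 202 and 91.1 in LatY136F. Il7r, the interleukin-7 receptor that long-lived T cells keep, went 1586, 1412, 935 and 262 in CD45-KO and 948, 938, 583 and 316 in LatY136F. Depth climbed with the class, with median UMIs of 2344, 2259, 2944 and 6122 in CD45-KO and 2792, 2706, 3362 and 6400 in LatY136F. CPM is scaled to it, but the Tfh-marked share is not, and its part in that share was not tested.

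Some genes of receptor signalling were higher with more Il4. Nfatc1 went 389, 520, 994 and 1348 CPM over the same classes in CD45-KO and 319, 392, 682 and 983 in LatY136F. Zap70, the kinase that binds the activated receptor chains, went 183, 242, 424 and 626 CPM in CD45-KO and 196, 245, 366 and 680 in LatY136F. Tnfsf8, which encodes CD30 ligand, went 175, 325, 998 and 1872 CPM and 104, 220, 559 and 1360 CPM. Taken over all Il4-positive cells, 3 of 12 calcium and NFAT genes were higher in both libraries and 0 lower, against 1.93% of all genes higher in both. Without the Tfh-marked cells 0 of the 12 were higher and 0 lower in either library, with medians of 0.02 in CD45-KO and 0.05 in LatY136F. The 3 genes higher over all Il4-positive cells were Nfatc1 (0.76 in CD45-KO and 0.59 in LatY136F), Orai1 (0.59 and 0.76) and Rcan1 (1.52 and 0.99). Orai1 is the calcium channel of store-operated entry and Rcan1 a calcineurin inhibitor that NFAT induces. Of 26 early receptor-induced genes, 7 were higher in both and 0 lower, with a median of 0.12. Nr4a3, an orphan nuclear receptor, had 2.49 and 3.43, Egr2 1.999 and 2.10 and Nfkbiz 1.65 and 1.27. Egr3 had 0.15 in CD45-KO and 1.20 in LatY136F. Fos, a subunit of the AP-1 factor, had -0.58 and -0.02. Of 20 genes of proximal receptor signalling 0 were higher and 0 lower in both libraries, with a median of 0.17.

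**Figure D3:**
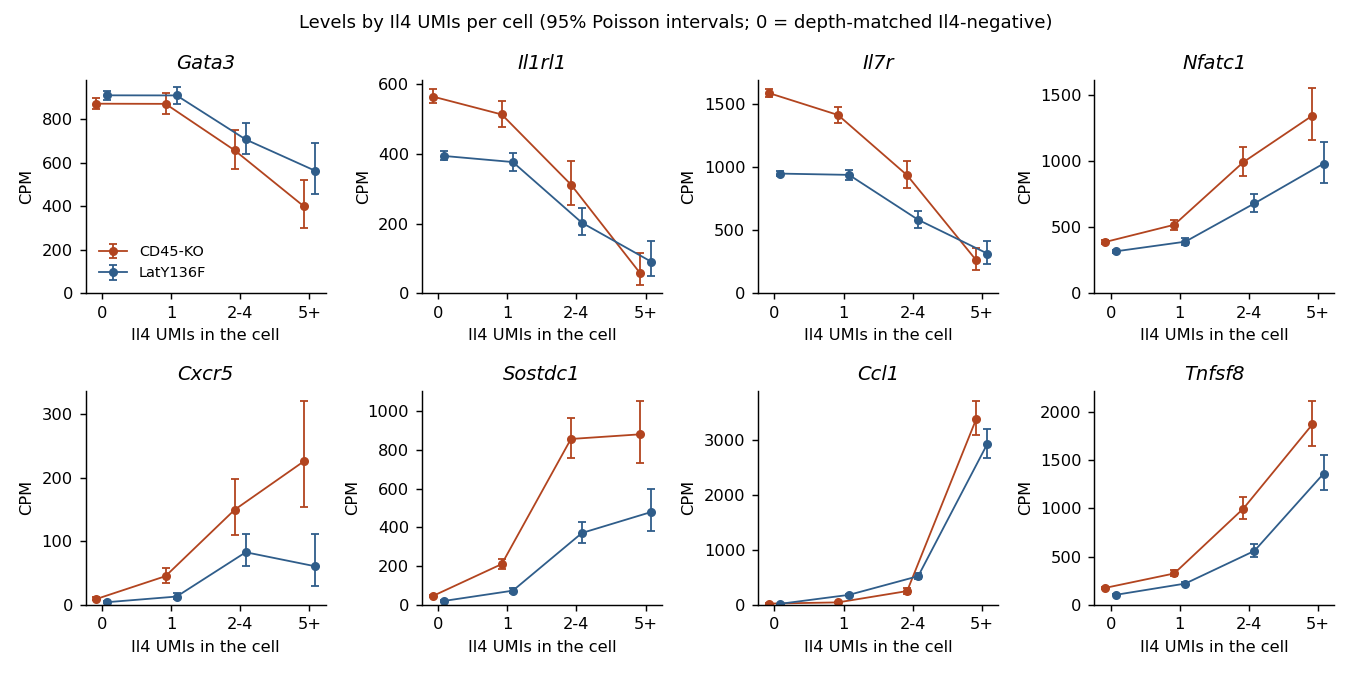
CPM of 8 genes by the number of Il4 UMIs in the cell, from depth-matched Il4-negative T cells (0) to cells with 5 or more, in the CD45-KO and LatY136F libraries, with exact Poisson 95% intervals. Gata3, Il1rl1 and Il7r go down, to 401, 58.3 and 262 CPM in CD45-KO, while Nfatc1, Tnfsf8 and Ccl1 go up, to 1348, 1872 and 3380 CPM.

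Other type 2 cytokines were found with Il4 in a minority of cells. By the rule above, 4 of 6 measured in LatY136F were higher and 0 lower (median log2 ratio 2.34), against 3.8% of all genes higher. Without Tfh-marked cells these numbers were the same, with a median of 2.28. In CD45-KO 2 were measured, with 0 higher and 0 lower. Il3 had 99 UMIs in LatY136F Il4-positive cells, 98 of them in 1 cell. Il13, which acts on epithelium and lies beside Il4, was in 3 of 634 CD45-KO Il4-positive cells against 0 of 1900 matched negatives, and in 13 of 826 (1.57%) against 8 of 2477 (0.323%) in LatY136F. Nearly all its UMIs came from few cells, with 17 of 19 in 1 CD45-KO cell and 58 of 101 in 1 LatY136F cell. Il5 was in 1 against 0 cells and in 0 against 1. Il10 was in 0 against 2 cells in CD45-KO and in 8 against 17 in LatY136F. Il6 was as frequent in both sets, 2.21% against 2.26% in CD45-KO and 8.84% against 8.80% in LatY136F. Csf2, which encodes GM-CSF, was likewise in 2.52% against 2.58% and in 1.57% against 1.53%. Areg, an epidermal growth factor ligand, was in 1.42% against 0.368% and in 2.78% against 0.525%. In CD45-KO that was 9 against 7 cells, with intervals that overlap (0.651 to 2.68 and 0.148 to 0.758).

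Cytokines outside the type 2 group were also found with Il4. Of 18 other cytokine and chemokine genes measured in both libraries, 7 were higher in both and 0 lower, with a median log2 ratio of 0.43. Over all genes 1.93% were higher in both and 0.437% lower. Il21 was in 9.78% of CD45-KO Il4-positive cells against 1.63% of matched negatives and in 5.08% against 1.33% in LatY136F. Of T cells with Il21, 36.7% in CD45-KO and 35.5% in LatY136F also had Il4. Tnf was in 5.52% against 2.74% and in 6.17% against 2.66%. Csf1, which encodes a macrophage growth factor, was in 59.5% against 65.3% and in 66.6% against 64.6%. Members of the TNF family on the cell surface were also frequent. Tnfsf8 was in 35.3% against 23.3% and in 29.7% against 20.5%, Tnfsf11, which encodes RANK ligand, in 18.9% against 13.2% and in 19.4% against 11.9%, and Tnfsf14, which encodes LIGHT, in 10.1% against 5.42% and in 8.96% against 5.53%. Lif, an interleukin-6 family cytokine, was in 4.73% against 3.53% and in 9.56% against 7.67%. Il2 was in 2.997% against 1.84% in CD45-KO and in 2.54% against 2.70% in LatY136F. Ifng, the cytokine of Th1 cells, was in 2 against 4 cells and in 0 against 8.

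**Figure D4:**
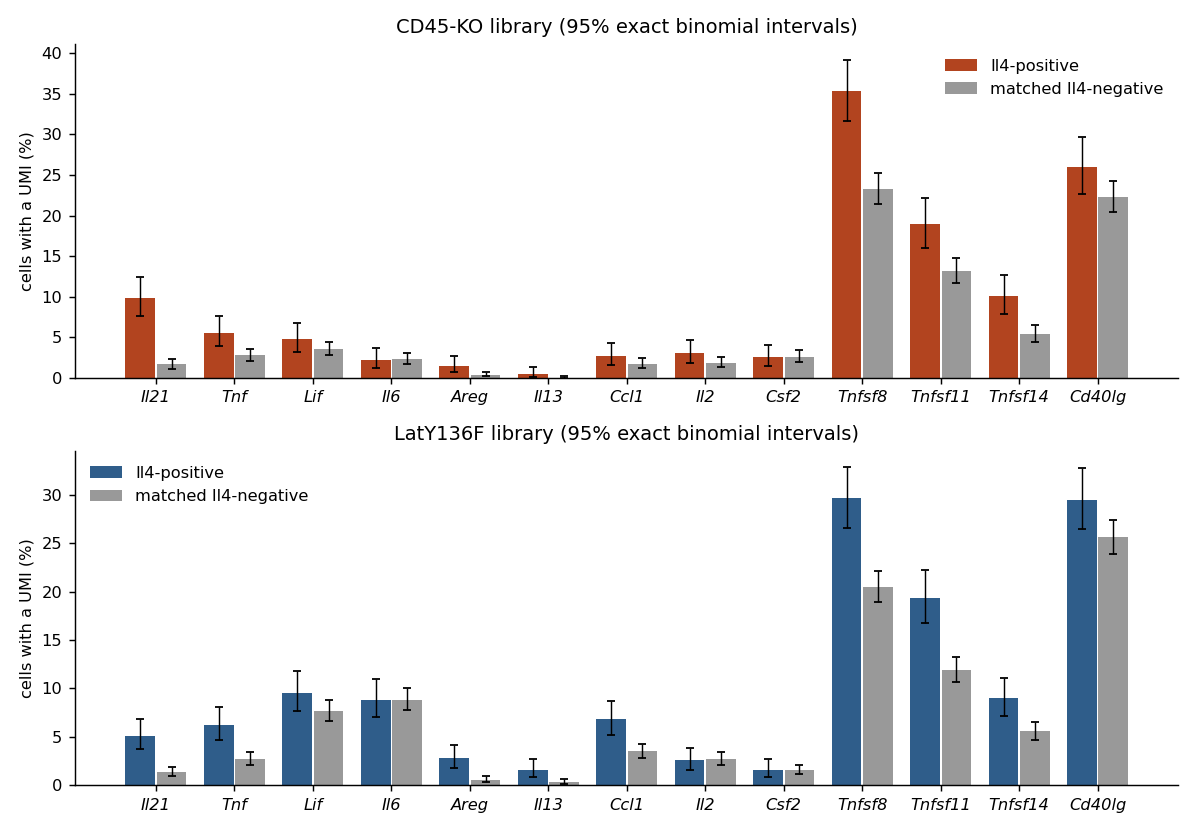
Percent of cells with a UMI of each of 13 cytokine genes in Il4-positive cells (coloured bars) and depth-matched Il4-negative T cells (grey bars) of the CD45-KO library (top) and the LatY136F library (bottom), with exact binomial 95% intervals. Il21 is at 9.78% against 1.63% in CD45-KO and 5.08% against 1.33% in LatY136F, while Il6 and Csf2 stand level.

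Ccl1, the ligand of the Th2-associated receptor CCR8, had the highest ratio of the 20 ranked genes in each library and came from few cells. It was in 17 CD45-KO Il4-positive cells (2.68%) against 32 matched negatives (1.68%), and in 56 (6.78%) against 86 (3.47%) in LatY136F. Those cells held 606 against 119 UMIs in CD45-KO, with 195 in the highest cell, and 1181 against 152 UMIs in LatY136F, with 254 in the highest. Its level was 323 against 21.4 CPM in CD45-KO, or 219 against 17.6 without the highest cell of each set, and 394 against 17.0 CPM in LatY136F, or 310 against 14.1. Ccl1 and the Tfh mark were in part on different cells. Of the 21 CD45-KO cells with 5 or more Il4 UMIs, 2 had Ccl1 without the Tfh mark, 14 the Tfh mark without Ccl1, 2 both and 3 neither. Of the 25 such LatY136F cells the numbers were 5, 11, 7 and 2. In CD45-KO the 2 Ccl1 cells without the Tfh mark held 42 Il4 UMIs, 35 of them in 1 cell, against 93 in the 14 Tfh-marked cells without Ccl1. In LatY136F the 5 such Ccl1 cells held 147 Il4 UMIs, 86 of them in 1 cell, against 91 in the 11 Tfh-marked cells. The same 2 single cells carried 17 and 58 of the Il13 UMIs.

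The same groups were read at 2 or more Il4 UMIs, a set that includes the cells with 5 or more. There Gata3 stood at 666 CPM in 5 CD45-KO and 1041 in 17 LatY136F cells with Ccl1 and no Tfh mark. It stood at 233 in 53 and 373 in 45 cells with the Tfh mark and no Ccl1. The cells with both, 3 and 11 in number, had 791 and 548 CPM, so the 2 marks do not part the cells cleanly. The cells with neither, 53 and 70 in number, had 1024 and 879 CPM. The highest CD45-KO cell had 35 Il4, 17 Il13, 195 Ccl1 and 3 Gata3 UMIs among 3893. The highest LatY136F cell had 86 Il4, 58 Il13, 98 Il3, 46 Ccl1 and 5 Gata3 UMIs among 7391. The next LatY136F cell had 24 Il4, 19 Sostdc1, 10 Pdcd1 and 0 Ccl1 UMIs. After it came cells without the Tfh mark, with 23, 19 and 17 Il4 UMIs. They had 1, 8 and 6 Gata3 UMIs among 6142, 4814 and 3850, and 18, 0 and 1 Ccl1 UMIs. This split by Ccl1 and the Tfh mark was chosen after the values were seen.

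Other genes that led the ranking in both libraries were of mixed function. Btla, an inhibitory receptor of Tfh cells, had log2 ratios of 2.35 in CD45-KO and 2.17 in LatY136F. Cd109, a surface protein that binds TGF-beta, had 2.71 and 2.33. Tbc1d4, a regulator of glucose transporter traffic, had 1.92 and 1.91 and Nrgn, a calmodulin-binding protein, 1.75 and 1.98. Akr1c18, a progesterone-metabolising enzyme, had 3.09 and 1.88, and Rgs10, a regulator of G protein signals, 2.51 and 1.78. Hdc, which makes histamine and is best known from basophils and mast cells, had 2.32 and 2.02, with 227 UMIs in 29 CD45-KO cells and 630 in 95 LatY136F cells. Fcer1a, Ms4a2, Gata2, Prss34 and Kit, which define basophils or mast cells, were at 0 in the Il4-positive cells of both libraries, as was Mcpt8 by the rule. Cd200r3, a receptor of the same cells, had 4 UMIs in the Il4-positive cells of each library, 2.13 against 0.359 CPM in CD45-KO, and Cpa3, a mast cell protease, had 1 UMI in those of LatY136F. The summed level of all these markers was 123 against 30.3 CPM in CD45-KO and 212 against 53.3 in LatY136F, nearly all of it Hdc, and their part in the result was not tested. The gene beside Il4 on its downstream side, Kif3a, a kinesin motor that ends toward Il4 on the other strand, had 1.09 and 0.74. Rad50, a DNA repair gene on the far side of Il13, had 0.08 and -0.19.

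Lower genes were fewer. Of 20 cell cycle genes 2, Ccna2 and Ccnb1, were lower in both and 0 higher, with a median of -0.32, against 0.437% of all genes lower in both. Ccna2, a cyclin of S phase, had -0.82 and -0.60. Outside that list Ube2c, which marks cyclins for destruction, had -0.83 and -0.82, and Prc1, a spindle midzone protein, -0.73 and -0.63. Set against all Il4-negative cells without matching, Ube2c went to 0.56 and 0.38, Ccna2 to 0.64 and 0.59, Ccnb1 to 0.68 and 0.54, and Prc1 to 0.10 and 0.23, so their direction rests on the match for depth. Genes of other cell types were lower too. H2-Ab1, an MHC class II chain, had -2.50 and -0.95, and Jchain -1.29 and -5.71, from 9 and 4 Il4-positive cells with a UMI. With 1 matched cell in place of 3, Jchain in CD45-KO went to 0.67. Gzma, a granzyme, was at 3.73 against 46.6 CPM in CD45-KO and 73.5 against 111 CPM in LatY136F. Markers of plasma cells summed to 177 against 338 CPM in CD45-KO and 45.8 against 126 in LatY136F, and those of B cells to 15.4 against 31.2 and 5.34 against 21.3. Myeloid markers summed to 238 against 478 CPM and 209 against 213. Cells with a UMI of any of these markers were 39.0% against 38.6% in CD45-KO and 49.6% against 47.4% in LatY136F, and their part in the lower genes was not tested.

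Markers of regulatory T cells, which restrain immune responses, were mixed. Foxp3, their defining factor, was at 0 in CD45-KO Il4-positive cells, where 0 of 29 Foxp3-positive T cells had Il4, against 6 of 98 in LatY136F. The 5 regulatory markers together summed to 300 against 163 CPM in CD45-KO and 282 against 177 CPM in LatY136F. Of 9 regulatory T cell genes measured in both libraries, 3 (Ikzf2, Il1r2 and Izumo1r) were higher in both and 0 lower, with a median of 0.52. Over all genes 1.93% were higher in both and 0.437% lower. Without Tfh-marked cells Il1r2 stayed higher in both (1.38 in CD45-KO and 0.77 in LatY136F) and Il2ra became so (1.28 and 0.60). Ikzf2, at -0.12 in CD45-KO, and Izumo1r were then not higher in both. Trav11, the receptor segment of invariant NKT cells, was at 0 in Il4-positive cells and in matched negatives of both libraries, and the 3 invariant NKT markers summed to 4.26 against 1.44 CPM in CD45-KO and 6.35 against 2.57 CPM in LatY136F. Of T cells with Trdc, the delta chain gene, 4.23% had Il4 in CD45-KO and 9.38% in LatY136F. NK cell markers summed to 11.7 against 100 CPM in CD45-KO and 90.5 against 133 in LatY136F, with Ncr1, Klre1, Klra8 and Klra4 at 0 in the Il4-positive cells. In LatY136F Ncr1, Klra8 and Klra4 were at 0 in the matched negatives too.

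CD45-KO was then set over LatY136F within the Il4-positive cells, with the same ratio in the matched negatives beside it. By the same rule 632 genes (6.52% of 9691) were higher and 543 (5.6%) lower in CD45-KO Il4-positive cells, and 882 (8.09% of 10898) and 752 (6.9%) in CD45-KO matched negatives. Of 9654 genes measured in both sets 240 (2.49%) were higher and 290 (3.0%) lower in both. The 2 ratios were close for most named genes, and the difference between them was not tested. Tcf7, a factor of naive, memory and Tfh cells, was at 459 CPM in CD45-KO and 186 in LatY136F Il4-positive cells, a log2 ratio of 1.30 (1.15 to 1.46), against 1.41 in the negatives. Itga4, an integrin chain, had 1.21 and 1.25 in the negatives, Il6ra, the interleukin-6 receptor, 1.13 and 1.06, and Arhgap5 1.81 and 1.30. Ikzf2, which encodes Helios, had 1.34 against 2.11.

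Cell cycle genes, the granzyme Gzmb and some annexins and galectins were lower in CD45-KO. Gzmb, a granzyme, was at 12.8 CPM in CD45-KO and 182 in LatY136F Il4-positive cells, a log2 ratio of -3.83 (-4.49 to -3.25), and at 35.7 and 127 CPM in the negatives, -1.83 (-2.05 to -1.61). Anxa2, a membrane-binding annexin, had -1.98 against -1.50, and Lgals3, which encodes galectin-3, -1.31 against -0.86. Of 11 annexin, galectin and S100 genes 0 were higher and 5 lower in Il4-positive cells, and 0 and 4 in the negatives. Over all genes, here and for the lists that follow, 6.52% were higher and 5.6% lower in Il4-positive cells. In the negatives it was 8.09% and 6.9%. Th1 and cytotoxic genes went both ways, with 3 of 10 higher and 5 lower in Il4-positive cells and 7 of 13 higher and 2 lower in the negatives. Of 20 cell cycle genes 0 were higher and 15 lower in Il4-positive cells, with a median of -0.80 against 0.04 over all genes, and 0 and 19 in the negatives. Top2a, a topoisomerase of dividing cells, had -0.97 and Ccna2 -1.29. Il2ra, the high-affinity interleukin-2 receptor chain, had -1.13 and Pim2, a survival kinase, -1.39. Of 25 Th2 regulators and receptors 1 was higher and 6 lower, the same numbers as in the negatives. Gata3 had -0.09 (-0.19 to -0.0026), against -0.06 in the negatives, and Il4ra -0.77 against -0.68.

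**Figure D5:**
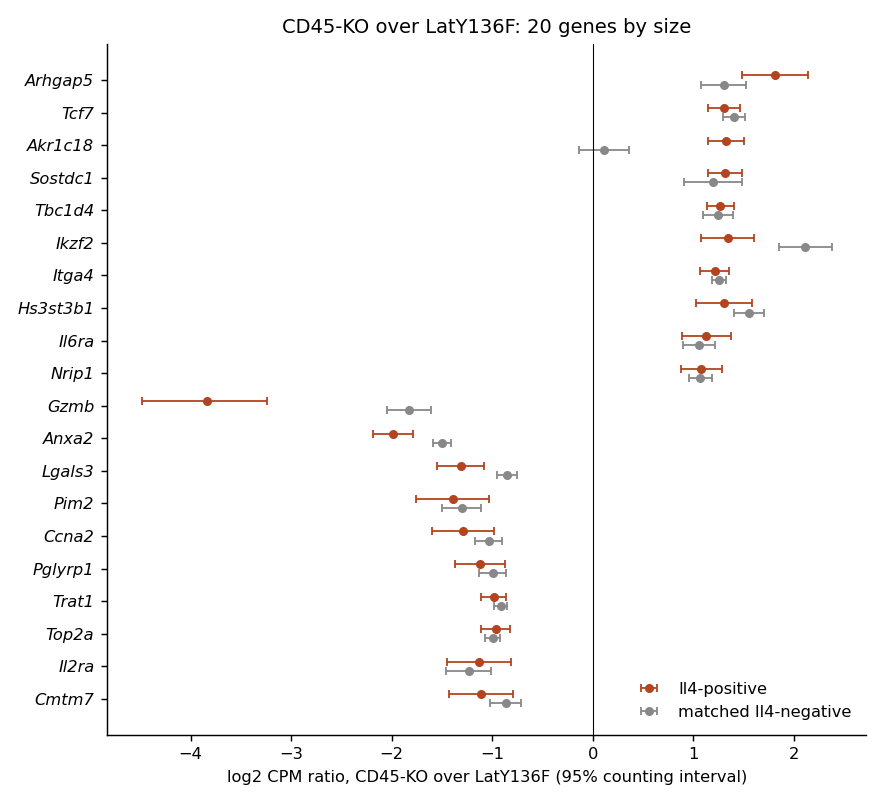
Log2 CPM ratio of CD45-KO over LatY136F for the 10 highest and 10 lowest genes in Il4-positive T cells, with the same ratio in depth-matched Il4-negative T cells and 95% counting intervals. Gzmb stands at -3.83 in Il4-positive cells and -1.83 in the negatives, and Akr1c18 at 1.33 and 0.11.

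Cytokines differed in both directions between the genotypes. Il21 was at 67.1 CPM in CD45-KO and 31.4 in LatY136F Il4-positive cells (log2 ratio 1.09, 0.70 to 1.49), with 1.10 in the negatives. Il6 was at 7.46 and 30.1 CPM (-2.01), with -1.66 in the negatives, and Lif had -0.75 and -0.81. Tnf had -0.66 in Il4-positive cells and 0.66 in the negatives. Of 6 type 2 cytokines measured, 0 were higher and 5 lower in CD45-KO, against 6.52% and 5.6% of all genes. The 5 were Il3, Il6, Il10, Il13 and Areg. Few cells stand behind them. Il13 had 19 UMIs in 3 CD45-KO cells and 101 in 13 LatY136F cells, Il3 0 UMIs against 99, of which 98 lay in 1 cell, and Il10 0 UMIs against 37 in 8 cells.

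Of 20 Tfh genes 13 were higher and 0 lower in CD45-KO Il4-positive cells, with a median of 0.74, against 9 higher and 3 lower in the negatives. Over all genes, here and for the lists that follow, 6.52% were higher and 5.6% lower in Il4-positive cells. In the negatives it was 8.09% and 6.9%. Cxcr5 had 1.44 (1.04 to 1.84), Sostdc1 1.31 (1.14 to 1.49) and Bcl6 1.21 (0.83 to 1.59). Tfh-marked cells were 19.6% of the CD45-KO and 13.4% of the LatY136F Il4-positive cells. Without the Tfh-marked cells of either genotype the ratio of Akr1c18 was -0.08. Of 18 naive and quiescent genes 17 were measured, with 7 higher and 0 lower in Il4-positive cells and 10 and 0 in the negatives. Of 11 heat shock genes 5 were higher and 0 lower in each set, with Hspa1b, an inducible chaperone, at 41.5 CPM in CD45-KO and 5.29 in LatY136F Il4-positive cells (2.97) and 3.44 in the negatives. Each genotype is 1 library, so library and genotype cannot be told apart for any of these ratios.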

How the data were processed

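Spleen T cells of 1 LatY136F CD45-KO and 1 LatY136F library were analysed. The deposited values are counts of molecules per cell and gene, with cells in rows and no normalization. Per the file headers, the authors made these counts with the BD Rhapsody whole transcriptome pipeline 1.9.1 on GRCm38 with GENCODE M19. The design text names pipeline 2.0 and the submitters' processing notes GRCm39, and the file headers were followed. Gene positions come from a GENCODE annotation of GRCm38. The members and gene lists were chosen with earlier results of these data known.

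Cells and T cells were kept by the thresholds in the first paragraph of the results, and doublets were kept. Matching took the nearest cells by natural log of UMIs without Il4, without replacement, within 0.1. UMIs were summed per set and scaled to CPM. Ratios have exact conditional binomial 95% intervals and shares exact Clopper-Pearson ones, and a gene at 0 in a set took a floor of 3 UMIs. Both kinds of interval cover counting error only. Coverage of the ratio intervals was checked on simulated Poisson counts, which is the model that these intervals assume. The check therefore cannot show coverage in these data, where UMIs of a gene can lie in few cells. Ratio intervals leave out that spread between cells. No test was run, because each genotype has 1 library and cells are not replicates.

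The genes named from the whole table were the 12 highest and 8 lowest for Il4-positive over negative cells (50 CPM, a UMI in 10 cells, both libraries, ranked by the interval bound nearest 0) and the 10 highest and 10 lowest for CD45-KO over LatY136F (100 CPM). Unnamed genes, receptor segments and immunoglobulin, mitochondrial, ribosomal, sex-linked and haemoglobin genes were left out. Up to 4 members were named per list by size, and others named were chosen after their values were seen. Python 3.11.15 with numpy 2.4.6, scipy 1.17.1 and matplotlib 3.10.9 was used. Some results are not reported here.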

Additional observations from a re-analysis of the deposited data

Results flagged for a closer look

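Trdc, the constant segment of the delta chain of gamma delta T cells, went in opposite directions in the 2 libraries. Its log2 ratio of Il4-positive over matched Il4-negative T cells was -0.696 in CD45-KO (11.2 against 18.1 CPM) and 0.638 in LatY136F (81.2 against 52.2 CPM), each past 1.5-fold with its counting interval off 0. The receptor gamma chain genes did not move with it, read over all Il4-positive cells, matched or not. In LatY136F Tcrg-C1 was at 2.65 against 6.38 CPM, Tcrg-C2 at 4.96 against 11.2 and Tcrg-C4 at 2.65 against 5.26. In CD45-KO they were at 9.06 against 9.51, 14.9 against 13.1 and 5.86 against 5.02. Sox13, the other gamma delta marker, went with Trdc, at 8.60 against 6.94 CPM in LatY136F and 13.3 against 19.9 in CD45-KO. The difference between the libraries was not tested.

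Cells with a Mcpt8 UMI, which the rule for T cells leaves out, also carried Il4. In LatY136F 16.7% of them had an Il4 UMI (4 of 24, exact 95% interval 4.74 to 37.4, median 4451.5 UMIs), against 0 of 107 cells without Trac, Cd3e or Cd3g (median 1161 UMIs). In CD45-KO it was 3 of 11 (median 3395 UMIs), against 4 of 188 (median 1425 UMIs). The cells with Mcpt8 were the deeper ones. Of LatY136F T cells with 4000 to 8000 UMIs 13.2% had Il4, a share inside the interval of the Mcpt8 cells. The CD45-KO median of 3395 UMIs lies in the class of 2000 to 4000 UMIs. There 5.92% of T cells had Il4, just below the interval of the CD45-KO Mcpt8 cells (6.02 to 61.0). In the next class, of 4000 to 8000 UMIs, 11.8% had it, inside that interval. With 11 and 24 cells, whether Mcpt8 cells differ from T cells of like depth cannot be told. Basophils are a known source of interleukin-4, and the part of these cells in the Il4 of the T cells was not tested.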

How the results depend on the processing

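No paired analysis was possible because each genotype has 1 library. Counts of genes and shares depended most on depth, on Tfh-marked cells and on cells with markers of other types. Genes higher in Il4-positive cells in both libraries numbered 194, with 368 without matching and 30 without Tfh-marked cells. Genes lower in both numbered 44, with 27 for cells weighted equally, 166 at 2 or more Il4 UMIs, 11 without cells with a B, plasma or myeloid marker, 27 without the top 1% of cells by UMIs and 28 without Tfh-marked cells. Genes higher in CD45-KO numbered 632, with 391 without the marker-bearing cells. The share of Il4-positive T cells was 0.902% in CD45-KO and 1.05% in LatY136F at 2 or more Il4 UMIs, 4.48% and 4.94% without marker-bearing cells, 2.47% and 2.64% when thinned to 1000 UMIs, 5.42% in CD45-KO at a mitochondrial share of at most 10%, and 5.37% in LatY136F when thinned to 2000 UMIs. Mean Il4 UMIs were 1.57 and 1.65 at that mitochondrial share, 1.15 and 1.17 when thinned to 1000 UMIs, and 1.30 and 1.31 without the top 1% by Il4. The Tfh-marked share was 49.1% and 39.2% at 2 or more Il4 UMIs, 12.5% and 6.30% when thinned, and 23.0% in CD45-KO at the lower mitochondrial limit.

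Log2 ratios that turned over were few. For Il4-positive over negative cells, Jchain in CD45-KO was 0.67 with 1 matched cell, and without matching Ccna2 was 0.64 and 0.59, Prc1 0.10 and 0.23, Ccnb1 0.68 and 0.54, and Ube2c 0.56 and 0.38 in CD45-KO and LatY136F. Ube2c in CD45-KO was 0.25 without the top 1% by UMIs, and Ccnb1 there 0.027 at 2 or more Il4 UMIs and 0.053 without marker-bearing cells. Without Tfh-marked cells Bcl6 was -0.81, Ikzf2 -0.12 and Bhlhe40 -0.16 in CD45-KO, and Bhlhe40 -0.076, Rcan1 -0.015, Cd160 -0.13 and Tox2 -0.33 in LatY136F. For CD45-KO over LatY136F, leaving them out gave Akr1c18 -0.084, Bcl6 -0.50, Pdcd1 -0.58, Rgs10 -0.52, Sostdc1 -0.50 and Tnf 0.21. In the same comparison Ccnb1 was 0.28 and H2-Ab1 -2.01 at 2 or more Il4 UMIs, with H2-Ab1 at -1.36 without the top 1% by UMIs, and Rcan1 -0.054 without marker-bearing cells. Bcl6, Pdcd1, Sostdc1 and Tox2 are among the 6 genes that define the Tfh mark, so leaving out those cells takes out most of their UMIs by construction. The cause of the other reversals was not tested.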

Other observations

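Il4 was also read from subsets that the rule did not use. Of T cells with Mki67, a marker of dividing cells, 7.88% had an Il4 UMI in CD45-KO and 9.05% in LatY136F. Of T cells with Gata3 4.99% and 6.24% had one, close to all T cells. Of T cells with Il1rl1 4.22% and 5.18% had one, and of those with Gzmb 5.04% and 7.60%. Of T cells with Ccl1 9.77% and 16.6% had one, and of those with Il13 3 of 6 and 13 of 29. Depth was not matched in these shares. The CD45-KO shares for Gata3, Il1rl1 and Gzmb lie inside the background interval of that library and are not read as expression.

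Among 20 interferon response genes 3 were higher in Il4-positive cells of both libraries and 0 lower, with a median log2 ratio of 0.36. Over all genes, here and for the lists that follow, 1.93% were higher in both and 0.437% lower. Iigp1, an interferon-induced GTPase, had 2.92 in CD45-KO (36.8 against 4.84 CPM) and 2.49 in LatY136F (5.68 against 1.01 CPM). Without Tfh-marked cells it had -0.15 in CD45-KO and 1.57 in LatY136F. Of 12 inhibitory receptors 5 were higher in both and 0 lower, with a median of 0.70. Cd160, a ligand of HVEM, had 2.15 and 2.68, and without Tfh-marked cells 0.69 and -0.13. Of 16 glycolysis genes and 16 secretory pathway genes 0 were higher and 0 lower in both libraries.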
